A study of Mus musculus with 6 samples.

Results

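Glycosaminoglycans are the long sugar chains that give articular cartilage its charge and its water content, and the genes for the enzymes that build and sulfate them were compared between 2 populations of Tomato+ cells from the mouse knee. The set was taken by gene symbol: every carbohydrate sulfotransferase of the Chst series, the xylosyltransferases, the enzymes that start and extend chondroitin and heparan chains, the heparan sulfate modifying enzymes, the hyaluronan synthases, the glucuronyltransferases of the B3gat series and 7 further single genes that supply, link or modify the chains. It held 51 of the 17854 genes listed. Of these, 43 had enough counts to be tested and 8 did not.

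Bulk RNA-seq had been performed on 3 libraries of each population. InjectPrrx libraries, called MSC-derived here, came from Tomato+ cells of the repaired articular cartilage of male C57BL/6 mice with knee osteoarthritis after anterior cruciate ligament transection. Their joints had been injected with Tomato+ mesenchymal stem cells (MSCs) of the *Prrx1* lineage, taken from the inguinal white fat of *Prrx1-Cre; R26tdTomato* mice. NativePrrx libraries, called endogenous here, came from Tomato+ articular cells of male *Prrx1-Cre; R26tdTomato* mice matched for age and sex, and are labelled C57BL/6 as well. In both groups the red reporter marks cells in which *Prrx1-Cre* had been active, a promoter of the limb mesenchyme that also labels osteoblasts, and sorting rested on that reporter alone. Surgery, the injection and the origin of the cells all differ between the groups and cannot be told apart. The study operated on young adult mice and injected them weeks later, but the sources used here tie no age or interval to the sequenced mice and mention no surgery or injection of the endogenous group. The methods give 3 mice for either group, but no label ties a library to a mouse.

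Both groups are labelled as chondrocytes, and the marker genes went against that label in the MSC-derived libraries. All 12 chondrocyte markers were lower there, with a summed level of 481 to 497 TPM (transcript levels scaled to the same total in each library) against 27980 to 28528 TPM in the endogenous libraries. Markers of bone and stromal cells moved the same way: 7 of 8 osteoblast and osteocyte markers were lower (566 to 586 against 53279 to 68781 TPM summed). So were 8 of 8 stromal fibroblast markers (1793 to 1824 against 17125 to 21551 TPM). In the endogenous libraries the osteoblast and osteocyte markers thus summed to more TPM than the chondrocyte markers. The chondrocyte label therefore does not describe all RNA of the endogenous group either. Blood cell markers moved the other way. All 10 macrophage markers were higher (13923 to 14249 against 58.9 to 75.6 TPM summed), as were all 8 neutrophil markers (139485 to 148362 against 7134 to 10413 TPM), all 6 general leukocyte markers (3442 to 3477 against 207 to 273 TPM) and all 6 erythroid markers (989 to 1039 against 263 to 288 TPM). Of 5 endothelial markers 3 were higher, of 3 tested adipocyte markers 1 was higher and 2 were lower, and none of 4 tested mast cell or 3 tested skeletal muscle markers passed the test in this edgeR fit. The mast cell markers *Cma1* and *Tpsb2* had too few counts to be tested. They had 2, 0 and 5 counts and 0, 1 and 0 counts in the MSC-derived libraries, and 0 counts in all endogenous libraries. The name MSC-derived is therefore kept only as the study's account of the sorted cells. Below, "MSC-derived cells" means all cells in these libraries, blood cells included. The part of these cell types in the results that follow was not tested. In bulk RNA, fewer cells of a type and less RNA per cell cannot be told apart.

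Depth was even, at 22060628 to 24881796 expected counts per library, so that 3 counts, the upper limit that a count of 0 allows, corresponded to 0.121 to 0.136 CPM (counts scaled to 1000000 per library). This limit covers counting error only. Endogenous replicate 1 stood apart from its group: 3449 genes were at 0 counts in it, against 1323 and 1375 in the other endogenous libraries, and it moved several enzyme genes named below. Levels are given as FPKM (fragments scaled by transcript length and by library size), as mean ± SD over 3 libraries. Fold changes and adjusted p-values come from edgeR's quasi-likelihood test on the counts, with Benjamini-Hochberg adjustment over 14289 genes and a threshold of 0.05. "Higher" and "lower" describe the MSC-derived libraries relative to the endogenous ones.

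Chain building follows an ordered path. *Ugdh* makes UDP-glucuronate, the activated sugar acid needed by every one of these chains except keratan sulfate. On proteoglycans, a linker of 4 sugars is laid on a serine of the core protein, starting with xylose, and the next sugar added decides whether a chondroitin or a heparan chain grows. Sulfotransferases and epimerases then act on the growing chain, and in cartilage the chondroitin sulfate of aggrecan carries mostly 4-O and 6-O sulfate. Hyaluronan is made at the cell surface without a core protein and without sulfate.

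Most enzyme genes of the set were lower in the MSC-derived libraries. Of the 43 tested, 29 were lower (67.4%), 3 were higher (6.98%) and 11 did not pass the test, whereas 30.3% of all 14289 tested genes were lower and 31.3% were higher. The median log2 fold change of the 43 was -1.15, against 0.05 over all tested genes. Of the 29 that were lower, 22 were at least 2-fold lower and 8 at least 8-fold lower. On normalised CPM the groups did not overlap for 31 members with the lower values in the MSC-derived libraries (34.1% of all tested genes had this pattern) and for 3 with the higher values (38.2% of all tested genes). The summed level of all 51 members was 594 to 598 TPM in the MSC-derived and 1637 to 1975 TPM in the endogenous libraries. Group ratios in TPM lay below the edgeR fold changes (median offset -0.44 on the log2 scale), so this gap was wider in TPM than in FPKM. Without endogenous replicate 1, 37 of 46 tested members were lower and 3 higher.

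**Figure D1:**
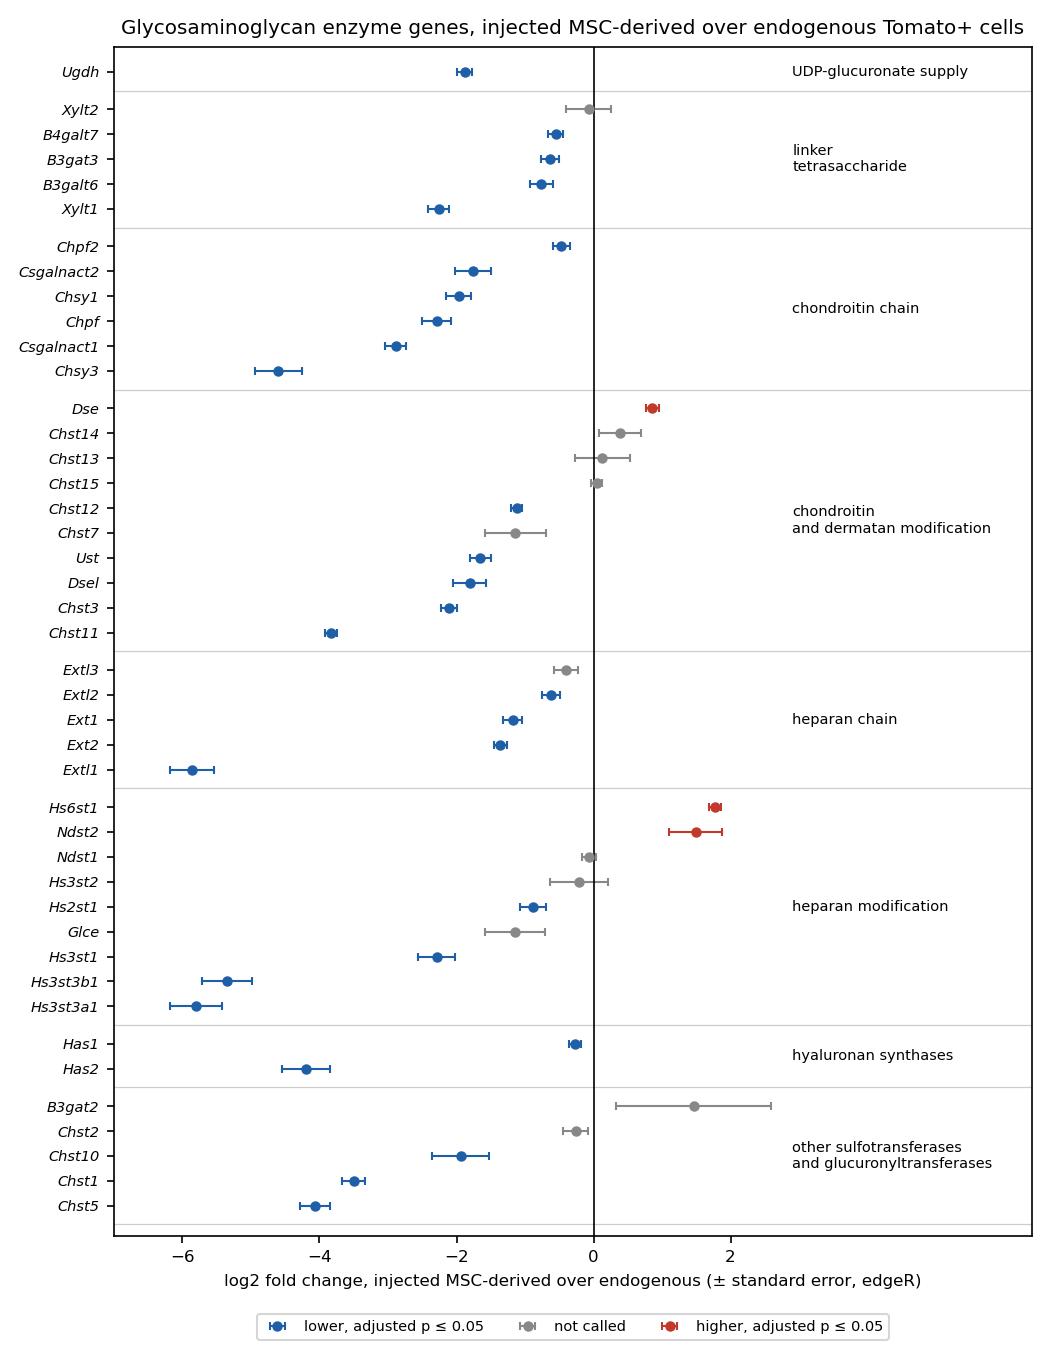
Each point is the log2 fold change (horizontal axis, edgeR) of 1 of the 43 tested enzyme genes, MSC-derived over endogenous, with its standard error as the bar, grouped by role. The 29 blue points left of 0 were lower, the 3 red points (Dse, Hs6st1 and Ndst2) were higher, and the 11 grey points did not pass the test.

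At the head of the path, *Ugdh* was lower. Its level was 55.4, 59.2 and 57.4 FPKM in the MSC-derived libraries and 229.6, 176 and 182 FPKM in the endogenous ones, so that no library of either group came near the other group. The log2 fold change was -1.88 (SE 0.11), a 3.69-fold lower level (edgeR adjusted p = 4.07e-06). Even so, *Ugdh* had the second highest mean level of the 51 genes in the MSC-derived cells and the highest in the endogenous cells.

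Of the 5 linker enzymes, 4 were lower (80%, against 30.3% of all tested genes) and 1 did not pass the test. Their changes differed in size. *Xylt1* and *Xylt2* are alternative enzymes for the same step, the transfer of the first xylose to the core protein. *Xylt1* read 5.65, 5.22 and 4.41 FPKM in the MSC-derived libraries and 26.5, 20.6 and 20.2 FPKM in the endogenous ones, and the groups lay far apart. It was 4.77-fold lower (log2 fold change -2.26, SE 0.15, edgeR adjusted p = 1.05e-05). *Xylt2* read 5.01, 4.32 and 4.69 FPKM against 2.31, 5.47 and 5.72 FPKM. The endogenous values of *Xylt2* lay on both sides of the MSC-derived ones, with replicate 1 the lowest of all 6 (log2 fold change -0.07, SE 0.33, edgeR adjusted p = 0.874). Its direction changed between alternative settings, and without endogenous replicate 1 it was lower (log2 fold change -0.44, edgeR adjusted p = 0.00318). Within a library, the ratio of *Xylt1* to *Xylt2* in TPM was 1.13, 1.21 and 0.943 in the MSC-derived cells, where both enzymes were at about the same level. In the endogenous cells it was 11.5, 3.77 and 3.54, with the highest ratio in replicate 1, where *Xylt2* was low.

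The other 3 linker enzymes add galactose, galactose and glucuronic acid in turn, and their changes were small. *B3gat3*, which adds the closing glucuronic acid, read 20.0, 21.3 and 20.9 FPKM in the MSC-derived and 25.4, 33.5 and 30.0 FPKM in the endogenous libraries. These groups did not overlap, with a log2 fold change of -0.64 (SE 0.13, edgeR adjusted p = 0.00377). *B4galt7* and *B3galt6* had log2 fold changes of -0.55 (SE 0.11) and -0.76 (SE 0.17), and both were called lower. Outside the set, 3 listed genes were lower as well: *Fam20b*, the kinase that phosphorylates the xylose (-1.34, SE 0.08), *Pxylp1*, the phosphatase that removes that phosphate (-1.99, SE 0.13), and *Bpnt2*, a Golgi phosphatase that acts on the by-product of sulfation rather than on the linker (-1.94, SE 0.26; all values log2 fold changes).

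All 6 enzymes that start and extend the chondroitin chain were lower, against 30.3% of all tested genes, with a median log2 fold change of -2.13. *Csgalnact1* and *Csgalnact2* add the first N-acetylgalactosamine, the step that commits the linker to chondroitin. *Csgalnact1* read 2.63, 2.33 and 2.75 FPKM in the MSC-derived and 21.7, 15.4 and 15.5 FPKM in the endogenous libraries, 7.39-fold lower (log2 fold change -2.89, SE 0.16, edgeR adjusted p = 3.82e-06). *Csgalnact2* read 7.98, 9.71 and 8.32 FPKM against 39.5, 20.1 and 22.6 FPKM, with endogenous replicate 1 the highest (log2 fold change -1.76, SE 0.26, edgeR adjusted p = 0.000687). For both genes every MSC-derived library was below every endogenous library. The endogenous mean was 27.4 ± 10.6 FPKM (SD, n = 3) for *Csgalnact2* and 17.5 ± 3.63 FPKM (SD, n = 3) for *Csgalnact1*. These ranges overlapped, but *Csgalnact2* was at the higher level of the pair within every library of both groups.

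*Chsy1*, *Chsy3*, *Chpf* and *Chpf2* form the polymerase complexes that lengthen the chain by turns of glucuronic acid and N-acetylgalactosamine. *Chsy3* was low in the MSC-derived libraries, at 0.54, 0.43 and 0.80 FPKM (49, 37 and 65 counts), and read 18.6, 10.96 and 9.94 FPKM in the endogenous libraries. It was 24.3-fold lower (log2 fold change -4.60, SE 0.34, edgeR adjusted p = 1.73e-05), the lowest value of the 6 chain enzymes. *Chsy1* had a log2 fold change of -1.97 (SE 0.18). *Chpf*, the most abundant of these enzymes in the endogenous cells, read 10.5, 10.2 and 9.26 FPKM against 30.8, 53.5 and 50.4 FPKM (log2 fold change -2.29, SE 0.21, edgeR adjusted p = 5.93e-05). Its endogenous replicate 1 lay below the other endogenous libraries and still well above the MSC-derived ones. *Chpf2* was the mildest, at 18.4, 17.7 and 17.5 FPKM against 19.0, 24.6 and 24.6 FPKM, and endogenous replicate 1 was little above the MSC-derived libraries (log2 fold change -0.47, SE 0.12, edgeR adjusted p = 0.0129). The call for *Chpf2* was lost in 5 of 17 alternative settings. *Chpf2* was the most abundant chain enzyme in the MSC-derived cells, where *Chpf* was in the endogenous cells.

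Chondroitin and dermatan modifying genes did not move together: of 10 tested, 5 were lower (50%), 1 was higher (10%) and 4 did not pass the test. Over all tested genes 30.3% were lower and 31.3% higher. The 4-O sulfotransferases *Chst11*, *Chst12* and *Chst13* put sulfate on carbon 4 of N-acetylgalactosamine. *Chst11*, the form that mouse growth cartilage is known to need, read 3.32, 3.26 and 3.01 FPKM in the MSC-derived and 45.8, 41.2 and 41.2 FPKM in the endogenous libraries. The groups were far apart against the spread within either, and *Chst11* was 14.2-fold lower (log2 fold change -3.83, SE 0.09, edgeR adjusted p = 8.27e-08). *Chst12* read 52.0, 49.2 and 53.4 FPKM against 108, 101 and 99.6 FPKM, a 2.17-fold lower level with no overlap (log2 fold change -1.12, SE 0.08, edgeR adjusted p = 1.02e-05). *Chst13* read 3.95, 3.21 and 2.87 FPKM against 1.47, 4.02 and 2.96 FPKM. These values of *Chst13* overlapped, with endogenous replicate 1 the lowest (log2 fold change 0.13, SE 0.40, edgeR adjusted p = 0.803). *Chst11* thus made up 5.59%, 5.85% and 5.08% of the summed TPM of the 3 genes in the MSC-derived libraries and 29.5%, 28.3% and 28.7% in the endogenous ones, the remainder being mostly *Chst12*.

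Sulfate on carbon 6 is added by *Chst3* and *Chst7*. *Chst3*, the main enzyme of this step in cartilage, was 4.32-fold lower by its counts of 324, 359 and 336 against 1259, 1469 and 1469 (log2 fold change -2.11, SE 0.12, edgeR adjusted p = 3.98e-06). In FPKM it read 0.80, 0.93 and 1.00 against 5.33, 7.44 and 7.03, a wider gap than in counts. For the MSC-derived group the number of counts behind 1 FPKM of *Chst3* was 1.80 times that of the endogenous group, whereas for the other 35 members with at least 0.5 FPKM in every library this ratio was between 0.99 and 1.07. Its FPKM and TPM therefore rest on different transcript lengths in the 2 groups. *Chst7* read 1.97, 1.77 and 1.60 FPKM against 6.26, 2.28 and 2.30 FPKM, with endogenous replicate 1 far above all other libraries (log2 fold change -1.14, SE 0.44, edgeR adjusted p = 0.0567). Without that library the value for *Chst7* was -0.54 (edgeR adjusted p = 0.0475). The ratio of 4-O to 6-O sulfotransferases in summed TPM was 21.4, 20.7 and 22.8 in the MSC-derived and 13.4, 15.0 and 15.4 in the endogenous libraries, a log2 difference of 0.57. With expected counts in place of TPM that difference was -0.09, so its direction depended on the length attributed to *Chst3*.

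Further sulfotransferases of this group act on rarer positions. *Chst15*, which adds a 6-O sulfate to units already sulfated on carbon 4, read 10.8, 11.6 and 11.2 FPKM against 10.3, 10.4 and 9.90 FPKM, slightly higher in FPKM but overlapping on normalised counts, where the test gave a log2 fold change of 0.05 (SE 0.08, edgeR adjusted p = 0.619). *Ust*, the 2-O sulfotransferase of uronic acid, was lower (log2 fold change -1.65, SE 0.15). *Chst14*, the 4-O sulfotransferase of dermatan, stood at 13.7 ± 1.42 against 9.63 ± 3.90 FPKM (SD, n = 3), with an endogenous replicate 1 of 5.26 FPKM below the other libraries (log2 fold change 0.39, SE 0.31, edgeR adjusted p = 0.307).

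*Dse* and *Dsel* are the epimerases that turn glucuronic into iduronic acid and so make dermatan from chondroitin, and they moved in opposite directions. *Dse* read 37.1, 37.3 and 40.2 FPKM in the MSC-derived and 21.5, 19.4 and 17.7 FPKM in the endogenous libraries, without overlap. It was 1.82-fold higher (log2 fold change 0.86, SE 0.09, edgeR adjusted p = 0.000103). *Dsel* read 0.93, 0.93 and 1.09 FPKM against 4.13, 2.34 and 3.03 FPKM, and was lower (log2 fold change -1.81, SE 0.24, edgeR adjusted p = 0.000433). *Dse* carried most of the summed TPM of the pair in both groups, 97.4% to 97.6% in the MSC-derived and 83.9% to 89.2% in the endogenous libraries.

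**Figure D2:**
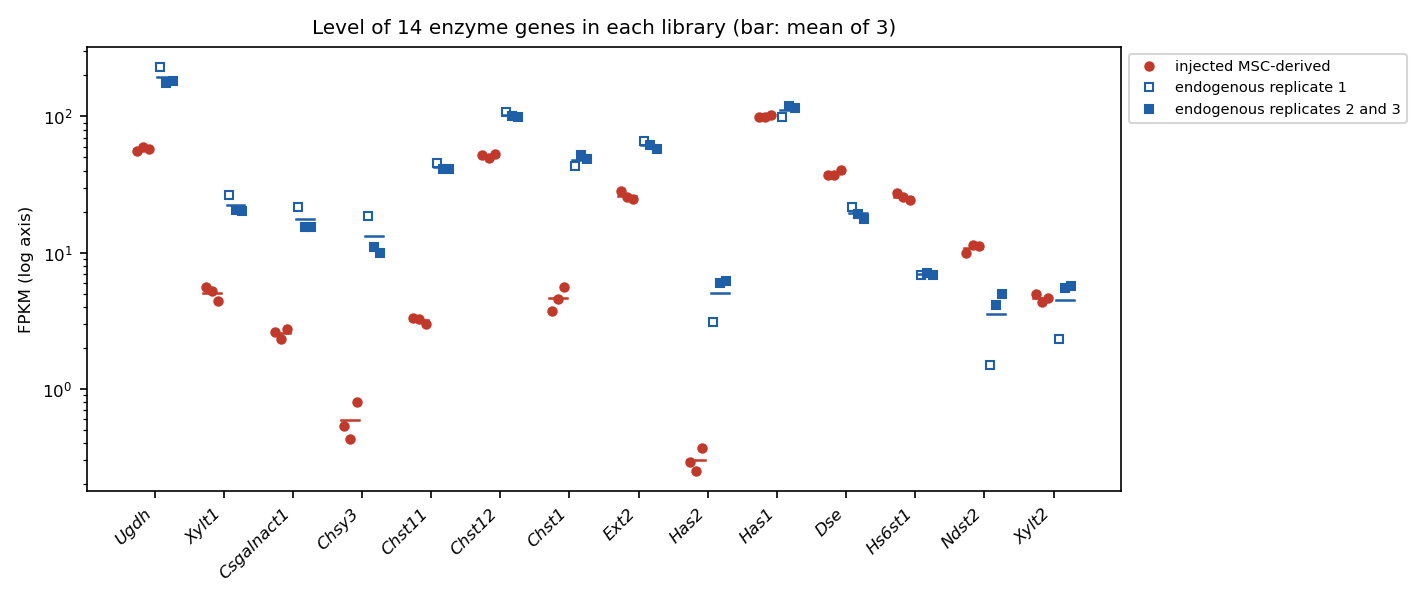
Level (FPKM, log axis) of 14 enzyme genes in each library, with filled circles for MSC-derived, filled squares for endogenous replicates 2 and 3, open squares for endogenous replicate 1, and a bar at the mean of 3 libraries. Ugdh to Has2 lie lower in every MSC-derived library, Dse, Hs6st1 and Ndst2 lie higher, and Has1 and Xylt2 overlap between the groups.

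The promoters of this pair, 1 called higher and 1 lower, are shown from 250 bases before to 50 after the start in RefSeq's annotation of GRCm38.p6 and on the strand of the gene. Capitals mark matches to 3 words searched on both strands: ACAAAG or ACAATG, read by SOX factors of chondrocytes, TGTGGT, read by RUNX factors, and GAGGAA, the core read by PU.1 of myeloid cells. The *Dse* window is chr10:34207186-34207485 on the minus strand and holds TGTGGT and, on the opposite strand, GAGGAA, printed as its complement. The *Dsel* window is chr1:111864869-111865168 on the minus strand and holds none of the words.
Dse: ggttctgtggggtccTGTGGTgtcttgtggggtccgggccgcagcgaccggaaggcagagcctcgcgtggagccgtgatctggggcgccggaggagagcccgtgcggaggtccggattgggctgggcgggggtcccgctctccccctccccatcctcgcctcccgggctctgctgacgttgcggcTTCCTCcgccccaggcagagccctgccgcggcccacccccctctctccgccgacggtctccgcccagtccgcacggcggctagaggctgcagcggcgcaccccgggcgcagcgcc
Dsel: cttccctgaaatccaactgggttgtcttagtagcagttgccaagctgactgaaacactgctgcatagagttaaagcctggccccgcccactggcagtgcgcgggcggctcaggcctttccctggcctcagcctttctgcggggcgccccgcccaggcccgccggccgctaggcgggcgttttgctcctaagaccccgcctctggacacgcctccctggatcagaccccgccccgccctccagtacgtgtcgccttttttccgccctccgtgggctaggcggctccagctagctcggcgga

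Of the 5 heparan chain enzymes, 4 were lower (80%, against 30.3% of all tested genes) and *Extl3* did not pass the test. Their median log2 fold change was -1.18. *Ext1* and *Ext2* form the heparan polymerase together. *Ext1* read 8.89, 11.4 and 9.99 FPKM in the MSC-derived and 24.6, 19.7 and 19.2 FPKM in the endogenous libraries (log2 fold change -1.18, SE 0.14, edgeR adjusted p = 0.000215). *Ext2* read 28.1, 25.5 and 24.6 FPKM against 65.7, 62.0 and 57.8 FPKM (log2 fold change -1.36, SE 0.09, edgeR adjusted p = 7.76e-06). For both subunits all MSC-derived libraries were below all endogenous ones, and *Ext2* was at the higher level of the pair in every library. *Extl3*, which adds the first N-acetylglucosamine and so commits the linker to heparan, read 3.69, 3.62 and 3.16 FPKM against 3.51, 5.17 and 4.08 FPKM. The groups of *Extl3* overlapped in FPKM but not on normalised counts (log2 fold change -0.40, SE 0.17, edgeR adjusted p = 0.0796, and -0.58 with an adjusted p = 0.000224 without endogenous replicate 1). *Extl2* had a log2 fold change of -0.62 (SE 0.13). *Extl1*, which is close in sequence to the polymerase subunits, was 58.1-fold lower, with 8, 23 and 15 counts in the MSC-derived libraries against an endogenous level of 9.07 ± 0.737 FPKM (SD, n = 3) (log2 fold change -5.86, SE 0.32, edgeR adjusted p = 3.45e-06).

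Within each library the summed TPM of the 6 chondroitin chain enzymes was set against that of the 5 heparan chain enzymes. The ratio was 0.922, 0.937 and 0.929 in the MSC-derived and 1.30, 1.28 and 1.37 in the endogenous libraries. In TPM, chondroitin enzymes were thus below heparan enzymes in all 3 MSC-derived libraries and above them in all 3 endogenous libraries. The log2 difference between the groups was -0.50. In expected counts, which are not divided by length, the chondroitin sum was the larger in every library of both groups. The ratio was still smaller in the MSC-derived libraries, but its position against 1 depended on the unit.

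Of 9 tested genes of heparan sulfate modification, 4 were lower (44.4%), 2 were higher (22.2%) and 3 did not pass the test. Over all tested genes 30.3% were lower and 31.3% higher, so higher calls were not more frequent in this role than among all genes. The 6-O sulfotransferase *Hs6st1* had the largest increase in log2 fold change of the genes called in the set. It read 27.4, 25.6 and 24.2 FPKM in the MSC-derived and 6.81, 7.10 and 6.87 FPKM in the endogenous libraries, where all 3 lay close together and far below. It was 3.42-fold higher (log2 fold change 1.77, SE 0.09, edgeR adjusted p = 2.34e-06), and its rank by mean FPKM among the 51 genes was 6 in the MSC-derived and 26 in the endogenous cells. The related *Hs6st2* and *Hs6st3* had at most 18 counts in any library.

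The N-deacetylase N-sulfotransferases open the modification of heparan and set where later sulfation can occur. *Ndst2*, the form that mast cells need for heparin, read 9.92, 11.3 and 11.3 FPKM in the MSC-derived and 1.50, 4.13 and 5.02 FPKM in the endogenous libraries. All MSC-derived values were above all endogenous ones, among which replicate 1 was the lowest (2.80-fold higher, log2 fold change 1.49, SE 0.39, edgeR adjusted p = 0.0124). Without replicate 1 the log2 fold change was 1.06 (edgeR adjusted p = 2.51e-08). The mast cell markers *Kit*, *Ms4a2*, *Fcer1a* and *Cpa3* did not pass the test, with a summed list level of 7.67 to 10.1 TPM against 4.16 to 12.7 TPM, whereas 3 of these 4 were higher without endogenous replicate 1. Their part in the *Ndst2* result was not tested. *Ndst1*, the widely expressed form, read 5.12, 5.58 and 5.92 FPKM against 5.47, 5.77 and 5.97 FPKM, which overlapped throughout (log2 fold change -0.07, SE 0.10, edgeR adjusted p = 0.545). *Ndst2* accounted for 66.0%, 66.9% and 65.5% of the summed Ndst TPM in the MSC-derived libraries and for 19.7%, 41.2% and 45.6% in the endogenous ones, the lowest share again in replicate 1.

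**Figure D3:**
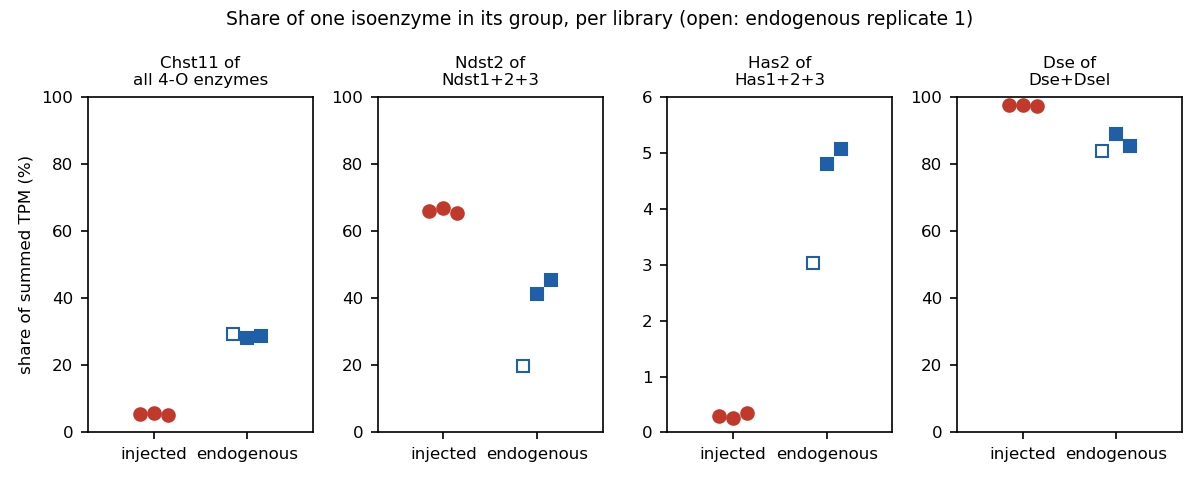
Share (%) of 1 isoenzyme in the summed TPM of its group, per library, in 4 panels, with circles for MSC-derived and squares for endogenous libraries (open for replicate 1). Chst11 and Has2 had smaller shares in every MSC-derived library, Ndst2 and Dse larger ones, and the Has2 panel runs only to 6%.

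Promoter windows of both genes, defined and marked as above, are given for comparison with *Dse*. The *Hs6st1* window, chr1:36068150-36068449 on the plus strand, holds none of the words. The *Ndst2* window, chr14:20734513-20734812 on the minus strand, holds GAGGAA on the strand of the gene.
Hs6st1: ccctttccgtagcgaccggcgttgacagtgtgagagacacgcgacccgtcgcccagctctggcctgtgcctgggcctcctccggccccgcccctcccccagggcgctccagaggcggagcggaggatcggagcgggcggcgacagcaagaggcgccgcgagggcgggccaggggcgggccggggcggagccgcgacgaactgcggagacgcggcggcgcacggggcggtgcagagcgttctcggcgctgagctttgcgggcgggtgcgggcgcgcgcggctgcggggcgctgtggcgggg
Ndst2: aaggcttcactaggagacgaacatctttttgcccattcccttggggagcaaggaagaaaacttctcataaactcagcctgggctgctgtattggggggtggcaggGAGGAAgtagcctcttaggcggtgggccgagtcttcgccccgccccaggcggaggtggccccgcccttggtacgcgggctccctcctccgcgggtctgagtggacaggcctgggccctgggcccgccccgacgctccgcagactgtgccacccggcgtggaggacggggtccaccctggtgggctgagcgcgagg

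The remaining heparan modifying genes, *Glce*, *Hs2st1* and the 3-O sulfotransferases, were lower or did not pass the test. *Glce*, the epimerase that makes iduronic acid, read 1.58, 1.63 and 1.68 FPKM in the MSC-derived and 1.27, 4.37 and 4.34 FPKM in the endogenous libraries. The groups of *Glce* overlapped through endogenous replicate 1 alone (log2 fold change -1.15, SE 0.44, edgeR adjusted p = 0.0528), and without that library *Glce* was lower (-1.60, edgeR adjusted p = 8.5e-10). *Hs2st1*, the 2-O sulfotransferase, was lower (log2 fold change -0.88, SE 0.19, edgeR adjusted p = 0.00507). The 3-O sulfotransferases add the rarest sulfate, which in heparin makes the site for antithrombin. *Hs3st1*, the form known for that site, read 3.13, 2.51 and 2.16 FPKM against 15.6, 10.4 and 9.20 FPKM, without overlap (log2 fold change -2.29, SE 0.27, edgeR adjusted p = 0.000206). *Hs3st3a1* and *Hs3st3b1* were nearly absent from the MSC-derived libraries, at 4 to 13 and 8 to 21 counts, against 457 to 616 and 479 to 807 counts in the endogenous libraries. Their log2 fold changes were -5.80 (SE 0.38) and -5.35 (SE 0.36). The catalytic parts of this pair are nearly identical in sequence, so reads may be divided between them and their separate values are uncertain. *Hs3st2* was low in both groups, at 0.13 to 0.32 FPKM against 0.15 to 0.20 FPKM (log2 fold change -0.21, SE 0.42, edgeR adjusted p = 0.688).

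Hyaluronan synthases were represented by 1 abundant and 1 minor gene. *Has1* read 98.7, 99.2 and 102.7 FPKM in the MSC-derived and 98.8, 119 and 116 FPKM in the endogenous libraries, so that the groups overlapped in FPKM through endogenous replicate 1. On normalised counts they did not overlap, with a log2 fold change of -0.27 (SE 0.09, edgeR adjusted p = 0.0322), and this call was lost in 10 of 17 alternative settings. *Has1* had the highest mean level of the 51 genes in the MSC-derived cells. *Has2*, the main synthase of developing limb and joint, read 0.29, 0.25 and 0.37 FPKM against 3.09, 6.03 and 6.20 FPKM, and was 18.2-fold lower with no overlap (log2 fold change -4.19, SE 0.35, edgeR adjusted p = 3.25e-05). *Has1* made up 99.6% to 99.7% of the summed TPM of the synthases in the MSC-derived and 94.9% to 96.8% in the endogenous libraries.

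Among the other sulfotransferases and glucuronyltransferases, 3 of 5 were lower (60%, against 30.3% of all tested genes) and 2 did not pass the test. *Chst1*, the 6-O sulfotransferase of galactose in keratan sulfate, read 3.74, 4.56 and 5.62 FPKM in the MSC-derived and 43.3, 51.7 and 48.8 FPKM in the endogenous libraries, 11.3-fold lower and without overlap (log2 fold change -3.50, SE 0.17, edgeR adjusted p = 1.76e-06). *Chst5*, which sulfates N-acetylglucosamine, read 0.82, 0.68 and 0.91 FPKM against 10.4, 14.0 and 12.98 FPKM, 16.8-fold lower (log2 fold change -4.07, SE 0.22, edgeR adjusted p = 3.10e-06). *Chst2* also sulfates N-acetylglucosamine, and is known for its part in the ligands of L-selectin. *Chst2* read 6.79, 6.74 and 6.81 FPKM against 5.47, 8.42 and 8.53 FPKM, with the endogenous values on both sides (log2 fold change -0.26, SE 0.18, edgeR adjusted p = 0.24, and -0.50 with an adjusted p = 4.29e-06 without endogenous replicate 1). *Chst10*, which makes the HNK-1 epitope, was lower (log2 fold change -1.94, SE 0.42, edgeR adjusted p = 0.0054), and *B3gat2*, a glucuronyltransferase of that epitope, had at most 28 counts in a library and did not pass the test.

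The 8 members without a test had few reads. *Hs3st4*, *Hs3st5*, *Chst8* and *Hs6st3* were at 0 counts in all MSC-derived libraries. In the endogenous libraries *Hs3st4* had 4, 22 and 26 counts, *Hs3st5* had 5, 24 and 20 counts, *Chst8* had 0, 8 and 16 counts and *Hs6st3* had 0, 2 and 0 counts. *Ndst3* had 0, 1 and 0 counts against 45, 15 and 1 counts. These genes had their few counts almost only in the endogenous cells, with replicates that did not match each other. *Has3* had 7, 1 and 3 counts against 16, 6 and 11 counts, and *Hs3st6* had 6, 0 and 5 counts against 0, 9 and 8 counts.

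By mean level, 32 of the 51 genes reached 1 FPKM in the MSC-derived and 41 in the endogenous cells. The largest contributors to the summed TPM of the set were chondroitin and dermatan modifying enzymes in the MSC-derived libraries (26.1% to 26.8%, mostly *Chst12* and *Dse*), followed by hyaluronan synthases (20.6% to 21.3%). In the endogenous libraries the modifying enzymes took 21.5% to 21.8% and the synthases 10.2% to 13.1%, whereas *Ugdh* took 18.5% to 23.0%, against 11.5% to 12.3% in the MSC-derived libraries. Heparan modifying enzymes took 10.1% to 10.7% in the MSC-derived and 5.02% to 5.19% in the endogenous libraries, and the ranges of the groups did not meet in any of these 4 cases.

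Of 7 tested genes listed for the supply of the sulfate donor PAPS, 3 were lower, none was higher and 4 did not pass the test. *Bpnt1*, among those 4, acts on the by-product of sulfation rather than supplying PAPS. The median log2 fold change of the 7 was -0.27, and 30.3% of all tested genes were lower and 31.3% higher. *Papss2*, the synthase of PAPS that cartilage depends on, was 19.4-fold lower, at 5.88 ± 0.602 against 105 ± 2.96 FPKM (SD, n = 3) (log2 fold change -4.28, SE 0.10, edgeR adjusted p = 7.89e-08). The sulfate carrier *Slc26a2* was lower by 6.60-fold (log2 fold change -2.72, SE 0.11), and *Papss1* had a log2 fold change of -0.97 (SE 0.10). *Slc35b2*, which carries PAPS into the Golgi, had 58.8 ± 1.44 against 62.1 ± 7.32 FPKM (SD, n = 3) and did not pass the test (log2 fold change -0.21, SE 0.10, edgeR adjusted p = 0.118).

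Sugar nucleotide supply was lower for 7 of 11 genes, among them *Gfpt2* (log2 fold change -2.63, SE 0.08) and *Uap1* (-2.17, SE 0.12) on the way to UDP-N-acetylglucosamine, *Uxs1* (-0.68, SE 0.13), which makes UDP-xylose, and the Golgi carrier *Slc35d1* (-2.45, SE 0.18). *Ugp2*, which makes UDP-glucose, had a log2 fold change of -0.03 (SE 0.18, edgeR adjusted p = 0.902). Without endogenous replicate 1, 9 of the 11 were lower and 2 higher. Of 4 genes that build the keratan sulfate chain itself, *B3gnt7* (log2 fold change 4.27, SE 0.20) and *B4galt1* (0.46, SE 0.08) were higher, and *B3gnt2* (-0.01, SE 0.08) and *B4galt4* (0.47, SE 0.18) did not pass the test. The summed level of the 4 was 113 to 117 TPM in the MSC-derived and 118 to 121 TPM in the endogenous libraries. Group ratios in TPM lay below the edgeR fold changes (median offset -0.44 on the log2 scale), so these sums give no direction. In mean FPKM each of the 4 was higher in the MSC-derived libraries, *B4galt1* for example at 39.1 against 26.3.

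Core proteins that carry the chains were mostly lower. Of 10 tested core proteins of chondroitin and dermatan sulfate, 8 were lower and 2 higher, and without endogenous replicate 1 these were 11 and 2 of 13. Aggrecan (*Acan*) had 3.03 ± 0.125 against 132 ± 4.08 FPKM (SD, n = 3; log2 fold change -5.55, SE 0.08), decorin (*Dcn*) 899 ± 10.2 against 4023 ± 329 FPKM (-2.28, SE 0.07) and lubricin (*Prg4*) 1621 ± 33.0 against 2173 ± 243 FPKM (-0.51, SE 0.07). The 2 that were higher, the invariant chain *Cd74* (log2 fold change 4.02, SE 0.10) and serglycin *Srgn* (1.97, SE 0.10), are known from antigen-presenting cells and from the granules of blood cells. Of 13 tested heparan sulfate core proteins, 10 were lower and 1 higher. Syndecan-4 (*Sdc4*) had 65.3 ± 3.06 against 597 ± 4.26 FPKM (SD, n = 3; log2 fold change -3.31, SE 0.07), whereas syndecan-3 (*Sdc3*) had 259 ± 2.75 against 84.3 ± 5.40 FPKM (1.50, SE 0.07).

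Breakdown genes differed from synthesis genes in direction. Of 16 lysosomal enzymes that degrade glycosaminoglycans, 12 were higher and 1, the 4-sulfatase *Arsb* (log2 fold change -0.69, SE 0.11), was lower. *Hexa*, which removes terminal hexosamines, had 497 ± 3.54 against 139 ± 5.09 FPKM (SD, n = 3; log2 fold change 1.72, SE 0.06). The heparan sulfamidase *Sgsh* (log2 fold change 1.99, SE 0.12), the 6-sulfatase *Galns* (1.16, SE 0.12) and the β-glucuronidase *Gusb* (0.98, SE 0.10) were higher too. The macrophage and neutrophil markers given above moved in the same direction as these lysosomal genes, and their part in this was not tested.

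Outside the cell, editing enzymes were divided. The heparan endosulfatases *Sulf1* and *Sulf2* remove 6-O sulfate, the group that *Hs6st1* adds, and went in opposite directions, with *Sulf2* higher (51.9 ± 1.10 against 25.3 ± 1.59 FPKM, SD, n = 3; log2 fold change 0.91, SE 0.07) and *Sulf1* lower (3.31 ± 0.633 against 15.0 ± 1.49 FPKM, SD, n = 3; -2.31, SE 0.16). Heparanase (*Hpse*) was higher (log2 fold change 2.25, SE 0.40), and the hyaluronan-degrading *Cemip* (-4.15, SE 0.22) and *Cemip2* (-1.43, SE 0.12) were lower. Of 8 hyaluronan-binding genes 5 were higher and 2 lower. The link protein *Hapln1*, which ties aggrecan to hyaluronan, had 1.88 ± 0.108 against 165 ± 33.0 FPKM (SD, n = 3; log2 fold change -6.57, SE 0.17), whereas the receptors *Cd44* (0.86, SE 0.08), *Lyve1* (2.22, SE 0.21) and *Stab2* (6.49, SE 0.48) were higher. All these calls are at the edgeR threshold used for the set, and 31.3% of all tested genes were higher and 30.3% lower.

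**Figure D4:**
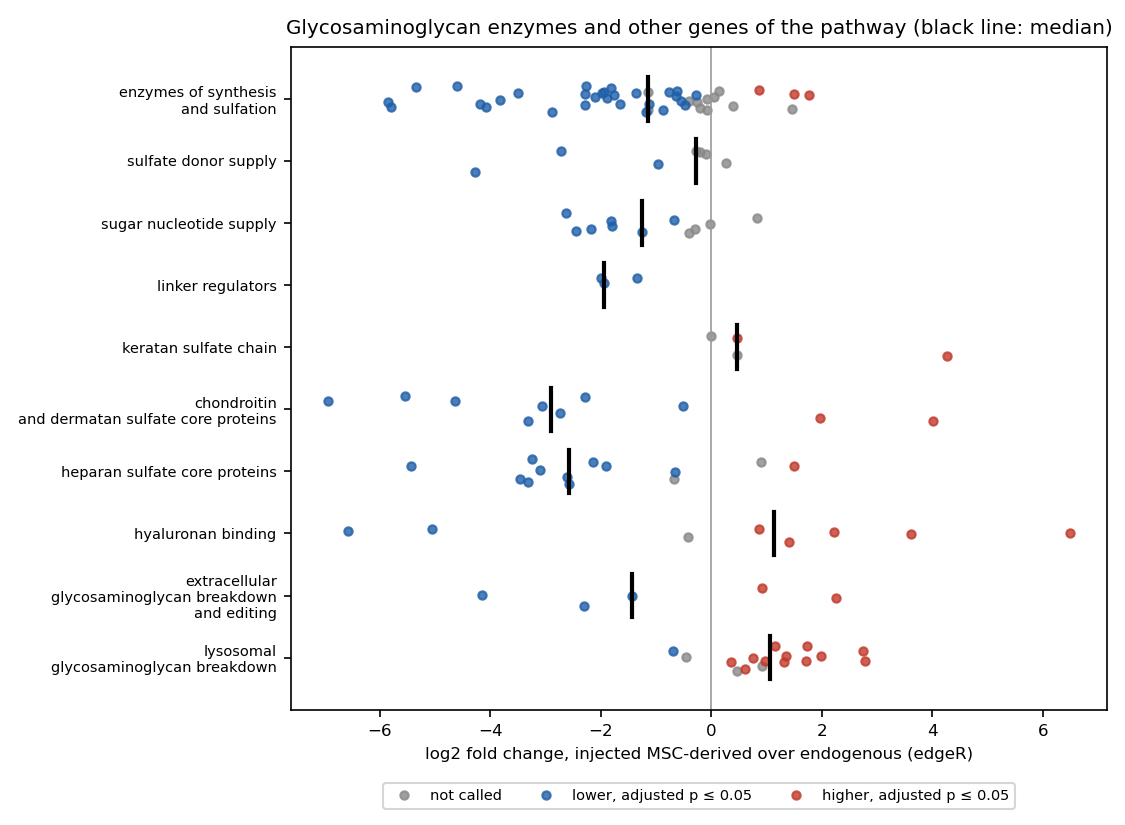
Each point is the log2 fold change (horizontal axis, edgeR) of 1 tested gene, for the enzyme set and 9 further lists of the pathway (rows), with the median of each list as a black line. Red and blue points were higher and lower, grey ones did not pass the test, and the lysosomal breakdown row lies mainly to the right of 0 (12 higher of 16) where the enzymes of synthesis lie mainly to the left (29 lower of 43).

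Of the 51 members, 41 had a promoter in RefSeq's GRCm38.p6 table, in 47 windows of 300 bases. Among the 27 windows of members that were lower, from 24 genes, 3 held a SOX word (11.1%), 0 held TGTGGT and 6 held GAGGAA (22.2%). Over all 17511 promoters of genes in the table these shares were 22.2%, 13.6% and 27.1%. The windows of *Chpf2* overlap and hold the same GAGGAA match, which is counted for each window. Of the 3 windows of members that were higher, GAGGAA was in those of *Dse* and *Ndst2* and TGTGGT in that of *Dse*. The windows of the members were rich in CpG, with a median of 23 CpG pairs for members that were lower, 33 for those that were higher and 17 over all promoters. A match describes letters in a window and not a bound site.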

How the data were processed

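Tomato+ cells were sorted from digested articular cartilage, and RNA was sequenced in 3 InjectPrrx and 3 NativePrrx libraries. Reads were cleaned by the authors with SOAPnuke and mapped with HISAT2 and Bowtie2, and RSEM gave the gene values. The submitters' processing notes name Bowtie2 2.2.5, RSEM 1.2.12 and the mm9 build (the methods give later versions of both tools and no build), so no coordinates other than those of RefSeq's GRCm38.p6 promoters are given. The authors deposited for each library the expected count of each gene, not normalized. The deposited FPKM corrects each gene for its length and each library for its total, and summed to 808701 to 813572 in InjectPrrx and 504768 to 573603 in NativePrrx libraries. The deposited TPM sums to 1000000 in every library. The authors' scaled counts (6 columns), 8 columns of group averages and columns of their own comparisons were not used.

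Expected counts were rounded (20.6% of values changed) and tested by quasi-likelihood (edgeR 4.0.16, R 4.3.3), InjectPrrx over NativePrrx, with TMM factors, the filterByExpr filter and no block. Adjustment was by Benjamini and Hochberg over 14289 genes, with a threshold of 0.05. The standard error is the log2 fold change divided by the square root of F. FPKM was printed for levels since its group ratios lay nearer to the edgeR fold changes (median offset 0.12 on the log2 scale) than those of TPM (-0.44), and TPM served sums and ratios within a library, which were not tested. The fit was tested on simulated data for this comparison (14289 genes, 200 of them changed). Both groups were simulated with the same spread for each gene, and as many genes were raised as lowered. In the data the groups differed in spread, and 31.3% of tested genes were called higher and 30.3% lower. The rates that follow therefore describe the simulated setting and not this comparison. The fit called 52% of the 2-fold and 74% of the 4-fold changes, all with the right sign, and 8.03% of its calls were false. The 4-fold changes missed the 80% first asked for, which was afterwards asked only of those in genes from 10 CPM (95.5% of 66). Alternatives were DESeq2 1.42.0, limma 3.58.1 on FPKM, other normalizations, filters and thresholds, the replicate block and each library left out. Separate cultures or animals are not labelled, so p-values measure the spread between these libraries. Counts of replicates differed by more than sampling noise in every pair (chi-square per gene of 3.84 or more). This does not show separate animals: the biological coefficient of variation was 6.77% in InjectPrrx and 35.3% in NativePrrx libraries.

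The members and the role, pathway and marker lists were chosen with earlier results of these data known. Values in each library are given for the genes with the highest mean FPKM of each role (up to 2), members called higher and members whose call or direction changed in an alternative, and for some others chosen after their values were seen. Promoters were searched by exact words, and figures were drawn with matplotlib 3.10.9. Values of 2 genes of the pathway lists are not reported here.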

Additional observations from a re-analysis of the deposited data

How the results depend on the processing

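Of the 43 members tested, 32 kept their call and direction in all 17 alternative fits that changed the normalization, filter, tool, block or libraries. The 3 genes called higher held in all 17, and of the 29 called lower 27 did, *Has1* and *Chpf2* being the exceptions. Members called lower numbered 27 to 37 in these fits. Leaving out 1 library at a time gave 3 higher and 29 to 37 lower members, and over all genes 3672 to 5563 higher and 3761 to 5686 lower, with the highest numbers without NativePrrx replicate 1. It gave log2 differences of 0.51 to 0.61 for the ratio of 4-O to 6-O sulfotransferases, -0.52 to -0.47 for that of chondroitin to heparan chain enzymes and -2.60 to -1.75 for *Xylt1* over *Xylt2*. Asking also for an absolute log2 value of 1 or more, 22 members were lower and 2 higher, and 2756 rather than 4468 of all genes were higher. At an adjusted p of 0.01, 27 members were lower and 2 higher. Only genes that did not pass the test changed direction among the fitted members: *Chst13* was -0.00 without InjectPrrx replicate 1 and -0.23 without NativePrrx replicate 1, and *Chst15* -0.04 with upper quartile normalization and -0.01 without NativePrrx replicate 1 (ranges over the libraries left out up to 0.43 and 0.08). With limma on FPKM, *Hs3st2* was 0.06 with a pseudocount of 1, filtered or not, and 0.22 with one of 0.1, and *Xylt2* 0.11 and 0.16. With library totals alone *Ndst1* was 0.04 and *Xylt2* 0.05, and *Xylt2* was -0.44, 0.06 and 0.14 without NativePrrx replicates 1, 2 and 3 (all log2 fold changes). The ratio of 4-O to 6-O sulfotransferases turned from 0.57 to -0.09 with expected counts in place of TPM, where the counts of *Chst3* are not divided by a length. Library totals alone moved the median of all genes from 0.05 to 0.16. The replicate numbers do not pair samples across the groups, as the groups come from different mice (correlations of same-numbered deviations 0.013, 0.002 and 0.018). Whether the libraries within a group come from separate mice is not labelled. With the replicate block, 28 members were lower and 3 higher, with 3920 and 4103 over all genes, and *Xylt2* was 0.03. DESeq2, which fitted all 51 members but gave *Hs6st3* no adjusted p-value, called 34 lower and 3 higher. The edgeR fit with no filter on low counts called 32 and 3. Depth limits the 8 members without a test, of which *Hs3st4*, *Hs3st5* and *Ndst3* were called lower in both of those fits.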
